A study of Drosophila melanogaster with 2 samples.

Results

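The genes kirre (kin of irre) and rst (roughest) were examined in a chromatin immunoprecipitation and sequencing (ChIP-seq) experiment on danr-eGFP, a fusion to green fluorescent protein of distal antenna-related, which binds DNA through a Pipsqueak domain. These 2 genes, out of 13968 protein-coding genes on the 7 chromosomes and 2196 on X, were selected on the number of peaks at kirre in these same lists and on the relation of rst to it, so the counts at both are a description without a test. A peak was given to a gene if its summit lay between 5 kb upstream of the first start site and the end of the gene. The series held 1 group, transgenic Drosophila melanogaster embryos of strain danr-GFP, whole and aged 0 to 24 h, in 2 biological replicates with 1 technical replicate each and an antibody against GFP, although 1 antibody field of the labels names danr. The labels name an insertion that targets danr, but give neither the promoter that drives the fusion nor its level. Every embryo of the group carried the fusion, and the control libraries that the labels name were not analysed here, so peaks have no untagged comparison. Whole embryos mix all tissues, and the lists do not tell in which cells the fusion protein was recovered. The regions of the series list, 2653 after overlapping rows were merged, had a median signal of 82.8, where signal is the authors' enrichment value per peak.

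Both genes encode transmembrane proteins of the immunoglobulin superfamily that hold cells together by binding to partners on the neighbouring cell. In the embryonic mesoderm, Kirre and Rst sit on muscle founder cells and bind Sns and Hbs on fusion-competent myoblasts, the step that precedes the fusion of myoblasts into muscle fibres. The same family sorts cells in the pupal retina and guides axons in the optic lobe, and loss of rst roughens the eye. The annotated proteins have 956 residues for Kirre and 764 for Rst, and 375 of 741 aligned positions (50.6%) were identical.

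The genes lie in each other's space on X. kirre (FBgn0028369) covers chrX:2740384-3134532 of the dm6 assembly on the plus strand, 394.1 kb, with 7 transcripts from 6 start sites and up to 13 exons, and is the 5th longest protein-coding gene. Its longest intron, intron 2 of the transcript with the most exons, spans 121.5 kb. rst (FBgn0003285) covers chrX:2950399-2973834 on the minus strand, 23.4 kb, within kirre, with 2 transcripts from 1 start site and 8 exons. The rst start site is 233.4 kb downstream of the first kirre start site. A kirre exon that 2 transcripts use, chrX:2968281-2968578, lies within the rst span, over 0 bp of rst exons. The 28.4 kb searched for rst is therefore also part of the 399.1 kb searched for kirre.

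The sequences around 7 summits carry the comparison, each given as 101 bp centred on the summit from the RefSeq copy of the dm6 assembly (Release 6), 5′ to 3′. Capitals mark matches, on either strand, to the motifs searched. Regions are numbered along kirre from its first start site. Regions 2 and 5 are shown because they lie at the start sites of other genes, regions 3 and 4 because they are the strongest close pair, and region 8 because it has the lowest score. Region 11 is shown because it is the strongest region in kirre sequence alone, and the last window because it is the strongest ranked peak at rst, which did not reach the score limit.
Region 2, at Syx4, chrX:2744159-2744259, plus strand: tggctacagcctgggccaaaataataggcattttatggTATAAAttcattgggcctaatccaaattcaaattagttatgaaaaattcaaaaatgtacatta
Region 3, in CG32795, chrX:2786690-2786790, plus strand: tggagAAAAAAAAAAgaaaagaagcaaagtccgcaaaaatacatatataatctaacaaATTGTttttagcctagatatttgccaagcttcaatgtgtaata
Region 4, in CG32795, chrX:2787377-2787477, plus strand: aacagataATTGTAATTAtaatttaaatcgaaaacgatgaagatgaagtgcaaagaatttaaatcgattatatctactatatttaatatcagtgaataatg
Region 5, at CG3588, chrX:2919895-2919995, plus strand: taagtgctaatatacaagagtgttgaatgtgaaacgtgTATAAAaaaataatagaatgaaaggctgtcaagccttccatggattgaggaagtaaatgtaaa
Region 8, intron 6, chrX:3036655-3036755, plus strand: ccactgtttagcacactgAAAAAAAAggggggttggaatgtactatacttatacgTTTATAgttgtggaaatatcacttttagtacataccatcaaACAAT
Region 11, intron 7, chrX:3097178-3097278, plus strand: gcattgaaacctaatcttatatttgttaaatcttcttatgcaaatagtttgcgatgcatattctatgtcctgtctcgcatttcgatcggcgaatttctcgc
rst, strongest ranked peak, chrX:2978185-2978285, plus strand: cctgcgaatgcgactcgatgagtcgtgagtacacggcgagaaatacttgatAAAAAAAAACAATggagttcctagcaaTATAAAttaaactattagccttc
TATAAA or its complement stands in the windows of regions 2, 5 and 8 and of the rst peak. Region 11 holds no match to any of the 9 motifs. In region 4 the matches to ACAAT and TAATTA share a base, and in the rst window those to the A tract and ACAAT do.

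Along kirre the series list held 12 thresholded rows, which merged to 11 regions, and no row at rst. The score of every kirre row in the thresholded lists was 830 or more, equal to an irreproducible discovery rate (IDR) of 0.01 or less, where a low IDR means that a peak takes similar ranks in repeated data. Over the whole series 112 of 2911 ranked rows at that score were not in the thresholded list, which draws on a further input that is not described, and 0 of those 112 were at kirre. The conservative list of the series had 10 regions at kirre, replicate 1 alone had 6 and replicate 2 alone had 8 from 9 rows. None of these 4 thresholded lists had a row at rst. Of all protein-coding genes 24.2% had a region by the same rule, and 2 genes (0.0143%) had at least as many as kirre, kirre itself included. Neither share supports anything about kirre, because the gene was chosen for its count.

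The first 2 regions lay at Syx4, a syntaxin gene of the membrane fusion machinery that overlaps the kirre start on the minus strand. Region 1 (chrX:2743115-2743458) had its summit within Syx4, 329 bp from a start site of that gene, with a signal of 117 and rank 766 of 2653. Its signal was 53.1 in replicate 1 and 69.4 in replicate 2. Region 2 (chrX:2744037-2744380), 922 bp further on, had its summit 133 bp from the other Syx4 start site, with a signal of 104 and rank 905. Here replicate 1 was the higher with 62.3, and replicate 2 had 41.5. Both summits were in kirre intron 2, at 2482 and 3404 bp from the nearest kirre start site, so the Syx4 start sites were closer than any of kirre.

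Regions 3 and 4 were the strongest close pair and lay within CG32795, a gene on the minus strand in kirre intron 2. Region 3 (chrX:2786568-2786911) had the highest signal of the locus, 158 with rank 473, and 66.4 in replicate 1 and 91.5 in replicate 2. Region 4 (chrX:2787255-2787598) followed after 687 bp with a signal of 123 and rank 695, and had 79.6 in replicate 1 and 47.9 in replicate 2. The replicates thus order the pair differently, as they do regions 1 and 2. The summits were 2582 and 1895 bp from the nearest CG32795 start site and 45935 and 46622 bp from the nearest kirre start site.

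Region 5 (chrX:2919773-2920342) was at CG3588, a plus-strand gene in kirre intron 3, with its summit 174 bp from a start site of that gene. It had a signal of 103 and rank 918, with 54.9 in replicate 1 and 45.4 in replicate 2. It was the only kirre region merged from 2 rows, and the second row had a signal of 6.01, yet also the top score of 1000. Region 5 stood alone, 132.5 kb from region 4 and 88.0 kb from region 6.

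The other 6 regions lay after rst in introns 6 and 7, where no other gene covered a summit, and all but region 11 had lower signals than regions 1 to 5. Region 6 (chrX:3007787-3008130) had a signal of 58.5, with 31.3 in replicate 1 and 29.3 in replicate 2. Region 7 (chrX:3018723-3019066) had 63.6, with 38.8 in replicate 1 and 18.9 in replicate 2. Region 8 (chrX:3036533-3036876) had 57.7, with 32.5 in replicate 1 and 23.5 in replicate 2. All 3 were in intron 6, ranked 1934 to 2169 of 2653, and reached the score limit in neither replicate alone. They lay 18908 to 47654 bp from the nearest kirre start site.

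Regions 9 and 10 reached the limit in replicate 2 and not in replicate 1. Region 9 (chrX:3045959-3046302, intron 6) had a signal of 97.4 and rank 1020, with 36.0 in replicate 1 and 59.0 in replicate 2. Region 10 (chrX:3085884-3086227, intron 7) had 69.6 and rank 1715, with 29.2 in replicate 1 and 44.5 in replicate 2. In both the replicate 2 value was the higher, while in regions 6, 7 and 8 replicate 1 was. Region 11 (chrX:3097056-3097399, intron 7) had a signal of 134 and rank 606, with 66.9 in replicate 1 and 68.9 in replicate 2, the closest values of the 11. Its summit was 2322 bp upstream of the kirre start site at 3099550, the shortest distance of any kirre region to a kirre start site.

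**Figure D1:**
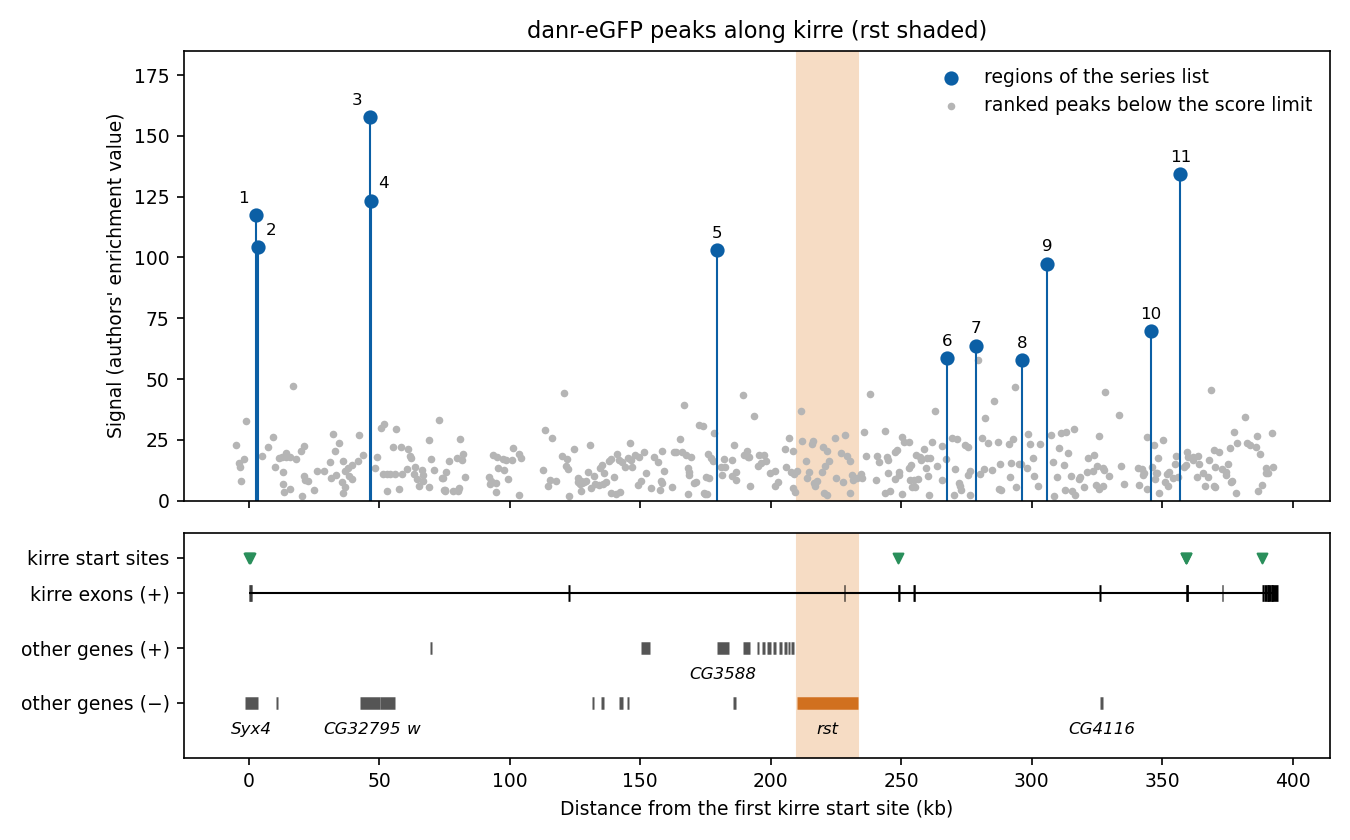
Peaks of the series along kirre, with distance from the first kirre start site in kb on the horizontal axis and the authors' signal on the vertical axis; numbered blue points with stems are the 11 regions, grey points are ranked peaks below the score limit, and the lower panel shows kirre start sites (triangles), kirre exons and the other genes by strand. The regions reach signals of 57.7 to 158, and the shaded rst span has grey points only.

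The map of the locus shows blocks rather than an even series. The median spacing of neighbouring kirre summits was 14491 bp, against 17897 bp for the 532 spacings on X. The shortest was 687 bp and the longest 132518 bp, and 45 spacings on X were at least as long as that. Of the 10 kirre spacings, 2 (20%) were under 1000 bp, against 41 of 532 (7.71%) on X. In the longest gap, between regions 4 and 5, the ranked list of the series still held 148 peaks of any score, or 1.12 per kb, close to the 1.13 per kb over all of kirre, but the highest of them had a signal of 44.2. Between regions 5 and 6, the stretch that holds rst, there were 107 ranked peaks, 1.22 per kb, up to 43.7. Long gaps in the regions were thus not gaps in ranked peaks.

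By density kirre was close to its chromosome. It had 2.76 regions per 100 kb, against 2.26 on X and 1.91 on the 7 chromosomes. Among ranked peaks of any score, 452 lay at kirre, 1.13 per kb, against 1.01 per kb on X and 0.98 on the 7 chromosomes. Of those at kirre 12 (2.66%) were at the score limit, against 2.42% on X and 2.12% on the 7 chromosomes. The median signal of the 11 regions was 103, against 85.6 on X and 82.8 over all regions, and 7 of the 11 were above the median of all. These densities were read within 1 list and carry no test.

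Most other long genes had fewer regions per 100 kb than kirre. Over the 87 protein-coding genes of at least 100 kb the median density was 0.779 regions per 100 kb. Of these genes 11 were denser than kirre and 37 had no region. Among the 5 genes closest to kirre in length, CG17684 (396.0 kb), DIP-lambda (379.1 kb), which encodes another immunoglobulin protein, lovit (434.0 kb) and bru3 (281.5 kb), an RNA-binding protein gene, had 0 regions. Ten-a (291.5 kb), a teneurin gene on X, had 3, or 1.01 per 100 kb. CG17684 and DIP-lambda lie on 2R, and lovit and bru3 on 3L. The long genes were matched to kirre neither by chromosome nor by position along it, and how well peaks can be called at each was not tested. As kirre was chosen for its count, its place among them is a description only. The other genes with the most regions were shorter than kirre. CG1677 had 11 regions in 124.7 kb (8.48 per 100 kb), the forkhead gene CHES-1-like 10 in 27.0 kb (31.2), sbb 10 in 79.1 kb (11.9) and the kinase gene Tlk 9 in 69.8 kb (12). Length and count thus did not go together at the top of the list, where kirre was the least dense of the 5.

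**Figure D2:**
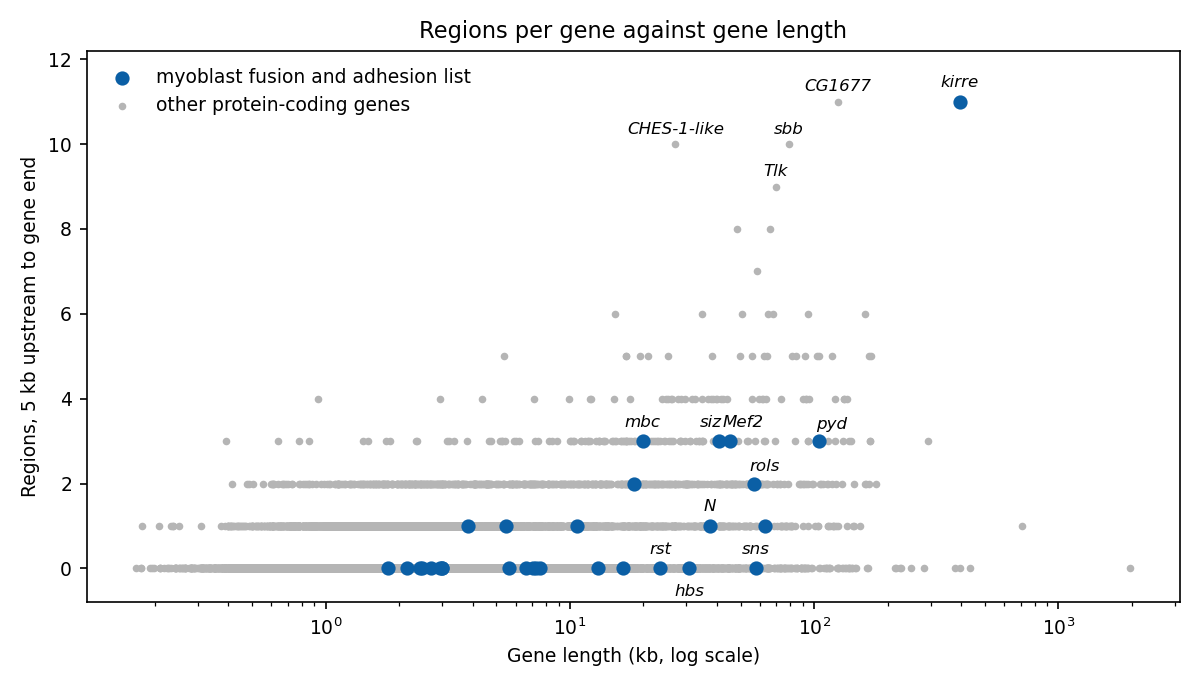
Regions per protein-coding gene on the vertical axis, counted from 5 kb upstream to the gene end, against gene length in kb on a log scale; blue points are the 30 genes of the fusion and adhesion list and grey points the other genes. kirre stands at 11 regions and 394.1 kb, CG1677 has the same count at 124.7 kb, and rst, sns and hbs stand at 0.

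rst had no region in any of the 4 thresholded lists, although ranked peaks were as dense there as elsewhere. The ranked list of the series held 34 peaks at rst, 1.20 per kb, with a median signal of 13.2, against 13.7 at kirre and 13.8 on X. None of the 34 was at the score limit, which allows a share of up to 8.82%, which is above the 2.12% of the 7 chromosomes, so a lower share at rst was not detectable with 34 peaks. The strongest (chrX:2978063-2978406) was 4401 bp upstream of the rst start site, with a signal of 43.7, a score of 578 and rank 4062 among the ranked peaks. The ranked list of replicate 1 held 19 peaks at rst and that of replicate 2 held 20, with highest signals of 24.4 and 26.0.

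The next peaks at rst were weaker still. Their signals were 36.9 at chrX:2951619-2951962 with a score of 42, 28.3 at chrX:2976119-2976462 with a score of 203, and 27.2 at chrX:2968560-2968903 with a score of 146. Within 1 kb of the rst start site there were 2 ranked peaks of the series, the stronger at 989 bp with a signal of 11.2. Replicate 1 had 1 ranked peak there, at 302 bp with a signal of 15.9 and a score of 74, and replicate 2 had 0. An absent region was common for a gene of this size. Of the 899 protein-coding genes of 15 to 40 kb, 512 (57%) had none.

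No region lay at a start site of kirre either. Within 1 kb of the first 2 start sites, at 2740384 and 2740805, neither the series nor either replicate had a ranked peak of any score in its list. A series peak with a signal of 32.7 lay just beyond 1 kb upstream of the first start site. The absence of series peaks at that site thus depends on the limit of 1 kb. The start site at 2989051 had 3 ranked peaks of the series within 1 kb with a signal of at most 20.9, those at 3099550 and 3099582 shared 4 with at most 20.1, and the last, at 3128639, had 2 with at most 19.1. The strongest peak at each of these sites had a series score of at most 67. Of all protein-coding genes 13.4% had a region's summit within 1 kb of a start site, while kirre and rst had none.

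By the nearest start site of any gene, 3 of the 11 kirre regions (regions 1, 2 and 5) were at a promoter, within 500 bp, against 1224 of 2632 regions (46.5%) on the 7 chromosomes. The median signal of these 3 was 104, against 91.2 for all promoter regions, and that of the other 8 was 83.5, against 77.2 for all distal regions. The median distance to any start site was 2582 bp at kirre, against 599.5 bp over all regions. At kirre 5 regions (45.5%) were over 5 kb from any start site, and all 5 were over 10 kb, against 395 (15%) and 182 of all regions. No kirre summit lay in an exon. No kirre region overlapped any of the 5 annotated transposable elements within the gene, which cover 24.3 of its 394.1 kb. The same shares over all regions are not given here, so neither absence is read as a trait of the kirre regions.

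Regions were counted at the genes inside kirre. Apart from Syx4, which overlaps its start, 22 genes lie wholly within kirre, 21 of them protein-coding and 10 on the minus strand, rst among them. Of the 22, CG32795 and CG3588 had a summit inside, against 8.38% of all protein-coding genes, and CG3588 alone also had a summit within 1 kb of a start site, against 13.4%. With 22 genes, neither count is read as a difference from that background. The other 20 had neither. Ranked peaks of any score lay inside 20 of the 22 genes, where such peaks stood at 0.98 per kb on the 7 chromosomes. The share of all genes with such a peak is not given here, so this count is not read as a result about these genes. The white gene w, which encodes a transporter of eye pigment precursors and lies directly beside CG32795, had 8 ranked peaks with a signal of at most 31.7 and a score of 192 for that peak. The labels do not say whether the insertion carries a copy of w, and whether reads from such a copy add to these peaks was not tested. The cluster of small genes between CG3588 and rst, from CG14424 to CG3603, had ranked peaks within the genes with signals of at most 25.7, and CG14422 had none. Between these genes signals were higher, with 43.5 at a series peak just upstream of CG32793, 189.212 kb from the first kirre start site. CG4116, in intron 6, had 1 ranked peak inside it with a signal of 13.5, and its start sites were the nearest to regions 8 and 9 at 30777 and 21351 bp. Upstream of CG4116, 918 bp from its start site, replicate 2 had a ranked peak with a signal of 38.0 and a score of 812. The series peak there had a signal of 44.6 and a score of 747, below the limit.

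The regions before rst were in the thresholded lists of both replicates, and most of those after it were not. Of the 11 kirre regions 6 (54.5%, exact binomial 95% interval 23.4 to 83.3%) were in both replicates' thresholded lists, against 1058 of 2653 (39.9%, 38.0 to 41.8%) over the whole list. No kirre region was in replicate 1 only, 2 were in replicate 2 only and 3 in neither. Over the whole list of 2653 these counts were 490, 442 and 663, and no difference is read from so few kirre regions. The conservative list held 9 of the 11, against 74.4% of all regions. All of regions 1 to 5 were in both replicates, while of regions 6 to 11 only region 11 was, a split chosen after the values were seen and not tested. Regions 1 to 5 had a median signal of 117 (103 to 158) and regions 6 to 11 of 66.6 (57.7 to 134), and the ranges overlapped through region 11. The intervals count regions of 1 locus as independent draws and cover counting error only.

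**Figure D3:**
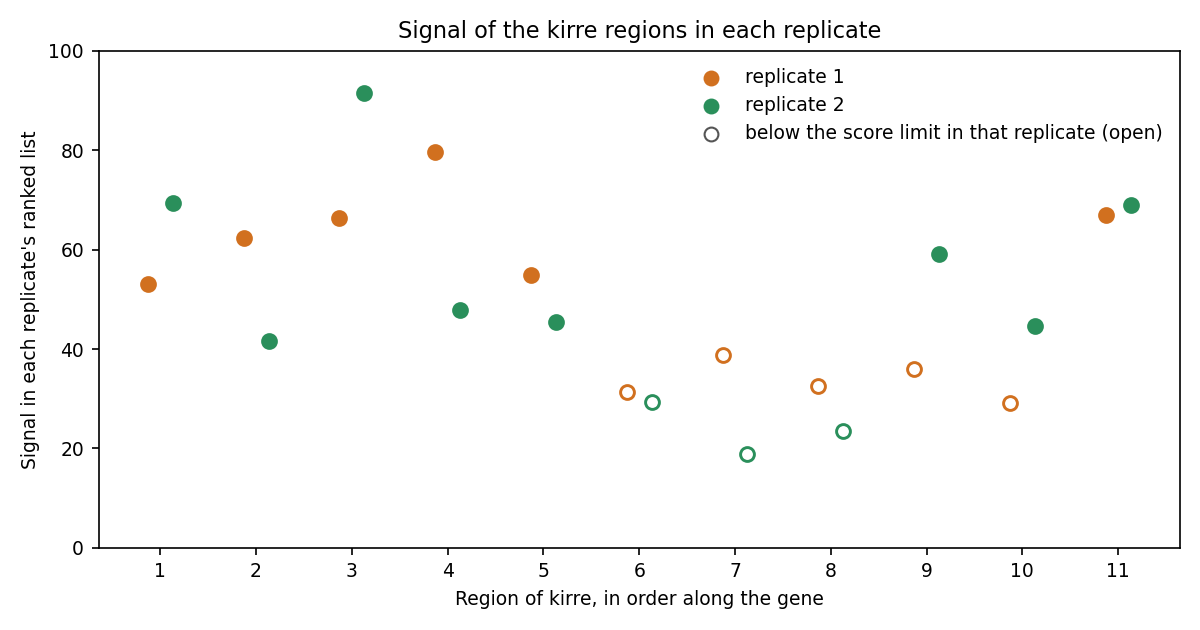
Signal of each of the 11 kirre regions (horizontal axis, in order along the gene) in the ranked list of replicate 1 (orange) and of replicate 2 (green), with open circles where that replicate's score was below the limit. Regions 1 to 5 and 11 are filled in both replicates at 41.5 to 91.5, and regions 6, 7 and 8 are open in both at 18.9 to 38.8.

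Signals of single replicates did not give a common order within the strong regions. In the plot of both replicates, region 4 was the highest in replicate 1 with 79.6 and region 3 in replicate 2 with 91.5. The ratio of replicate 1 to replicate 2 was lowest at region 9 with 0.609 and highest at region 7 with 2.06, with signals from separate lists, whose scales may differ. In both close pairs of kirre the stronger member changed with the replicate. On X this was so for 17 of 40 pairs under 1000 bp with values in both replicates (42.5%), and on the 7 chromosomes for 50 of 130 (38.5%).

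The members of the list closest to the limit were region 8 on the inside, with a score of 875 and a signal of 57.7, and on the outside peaks at chrX:2993328-2993671 (score 816, signal 13.5), chrX:3019614-3019957 (score 791, signal 57.95) and chrX:3108944-3109287 (score 771, signal 45.3). The score and the signal thus ranked these peaks differently. Of the 3 outside, that at 3019614 was in the conservative list with a score of 957, a list that lacks regions 7 and 8. Its signal was 34.7 in replicate 1 and 27.2 in replicate 2, below the limit in each. Beyond the ends of the window, the nearest regions were at CG2712, chrX:2732210-2732553, 8002 bp before the first kirre start site with a signal of 76.9, and within N, the Notch receptor gene, chrX:3162377-3162720, with a signal of 200.

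The summit windows of kirre were rich in A and T, like those of the list as a whole. The A+T content was 69.4% ± 5.45 (SD, n = 11 windows), with a range of 58.4 to 78.2%, against 66.8% ± 9.37 (n = 2632) over all summits and 67.1% ± 8.35 (n = 533) on X. In the windows 1000 bp to either side it was 59.0% ± 8.23 (n = 22) at kirre and 57.7% ± 10.6 (n = 5264) for all regions. Region 4 was the richest and region 10 the poorest. Windows of 1 locus share their base composition, so these values are a description.

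**Figure D4:**
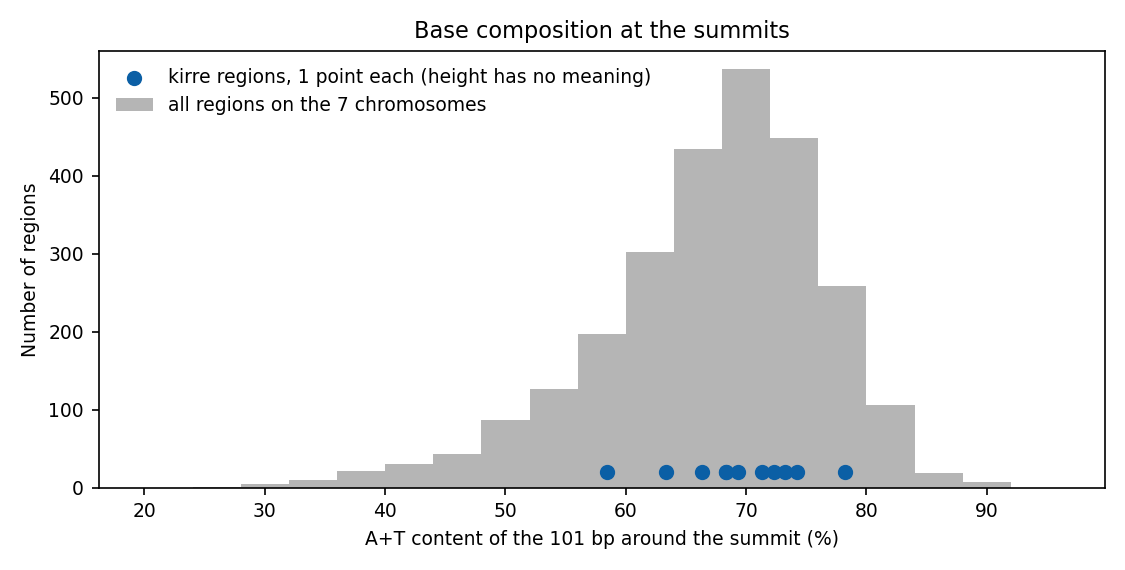
A+T content in percent of the 101 bp around the summit, on the horizontal axis, for the kirre regions (blue points, drawn at a common height) and as a histogram of the number of regions on the 7 chromosomes (grey). The kirre points run from 58.4 to 78.2%, inside the bulk of the histogram.

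Each motif was matched in at most 4 of the 11 kirre windows, and regions 9, 10 and 11 held no match. The shares rest on 11 windows of 1 locus and were not tested. The TATA box core TATAAA occurred in 3 of the 11 windows (27.3%), against 23.2% of all summit windows, and in 2 of 22 kirre flanks (9.09%), against 11.9% of all flanks. A run of AAAAAAAA was in 4 of 11 (36.4%), against 8.81% of all summit windows, and in 2 of 22 kirre flanks (9.09%), against 5.76% of all flanks. ACAAT, the Sox core, was also in 4 (36.4%), against 30.9%, and in the same share of the kirre flanks. TAATTA, the homeodomain core, was in region 4 only (9.09%), against 9.50%. The DREF site TATCGATA, the E-boxes CATATG and CAGCTG, the GAGA core GAGAG and the Tinman-type TCAAGTG were in no kirre window, where 0 of 11 allows a share of up to 27.3%. Over all summit windows they were in 0.988%, 4.41%, 3%, 9.08% and 1.29%. Both strands were searched, overlaps between motifs were kept, and a match is not a site.

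Of a list of 30 genes of myoblast fusion and adhesion, 12 (40%) had a region from 5 kb upstream to the gene end, against 24.2% of protein-coding genes, and 6 (20%) had a summit within 1 kb of a start site, against 13.4%. Without kirre and rst the first count was 11 of 28 (39.3%). The genes of the list were longer than others, with a median of 9.12 kb against 2.16 kb, and the share was not compared at equal length. The list was put together with results of these data known. kirre had the most regions of the list, and no other member had more than 3.

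The partner genes sns and hbs, which encode the receptors of fusion-competent myoblasts, had 0 regions like rst. A region was present at only 24.2% of all protein-coding genes, so this absence is not read as a result about the partners. Among genes that act behind the receptors, rols, an adaptor gene, had 2 regions with a highest signal of 78.4 (32.4 in replicate 1 and 46.5 in replicate 2). The Rac activator gene mbc had 3 with up to 133 (69.7 and 63.0), and siz, an Arf exchange factor gene, had 3 with up to 118 (79.8 and 49.6), that one 186 bp from the start of CG10584. Hem, a subunit gene of the SCAR complex that drives actin branching, had 1 with 138 (63.0 and 77.0), closest to IleRS at 174 bp. The kinase gene Pak had 1 with 77.4, 286 bp from its start site, with 53.8 in replicate 1 and no ranked peak in replicate 2. The strongest siz region and the Hem region lay nearer to a neighbour's start site, and the strongest of rols, mbc and Pak to their own. Position does not tell which gene a region belongs to.

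Among the transcription factors of the list, Mef2, the myogenic MADS-box gene, had 3 regions, and the strongest, with a signal of 493 and rank 40 (262 in replicate 1 and 225 in replicate 2), was 1081 bp from its own start site and 139 bp from that of Pal1. The fusion-competent myoblast factor gene lmd had 1 with 55.7 and the mesoderm gene twi 1 with 60.6, neither in both replicates. The junction genes pyd, of the ZO-1 family, and cindr, an adaptor gene, encode products that work with Kirre-family proteins in the retina. They had 3 regions with up to 122 and 2 with up to 114. None of these 5 was in both replicates' thresholded lists, against 39.9% over the whole series list. For rols 0 of 2 regions were in both, and for mbc, siz and Mef2 1 of 3 each. These counts are too small to be read as a difference from that background. The remaining 18 genes of the list, rst included, had no region.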

How the data were processed

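ChIP-seq peaks of danr-eGFP from 2 biological replicates of whole embryos were analysed as 8 deposited lists in dm6 coordinates, per the labels. The aligner was not given in the sources used here, nor was the peak caller. The depth per sample is unknown, so no interval from read counts was computed. The signal is the authors' enrichment value per peak and was ranked within a list. Values of the replicates come from separate lists whose scales may differ, and their ratios are a description. The deposited score is a transform of the IDR, and the deposited summit offset gave the summit. Fixed-width peaks of 344 bp made up 91.4% of the deposited series list, with the summit at the midpoint, which limits its resolution.

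Rows overlapping by at least 1 bp were merged, and the row of highest signal gave the summit. Genes and start sites came from Ensembl release 115, sequences and proteins from the reference genome of the same assembly, with Python 3.11.15, Biopython 1.88, SciPy 1.17.1, NumPy 2.4.6 and matplotlib 3.10.9. Proteins were aligned with BLOSUM62 (gap opening 11, extension 1). The counting was tested on simulated data.

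The genes, the list of 30 genes and the motifs were chosen with earlier results of these data known. Named genes are kirre, rst, genes within them or nearest to their regions, listed genes with a region, the 5 genes with the most regions and the 5 closest to kirre in length. Other genes named (Pal1, IleRS, CG10584, CG2712) are the nearest to a region described. Alternatives were other lists, merging rules, upstream distances, overlaps and window widths. The peaks' p and q values were not used.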

Additional observations from a re-analysis of the deposited data

How the results depend on the processing

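The absence of a region at rst held in each of the 8 alternatives run (the conservative list, each replicate left out, peaks of top score only, 2 merging rules, and 0 or 20 kb upstream). The count at kirre, 11, was 10 to 12 under the other lists, merging rules and distances, and 6 to 8 with a replicate left out, 6 being without replicate 2. Its density, 2.76 per 100 kb, was 1.5 without replicate 2 and 2.0 without replicate 1. The density on X, 2.26 per 100 kb in the series list, was 1.44 and 1.36 in the same 2 lists. With ranked peaks of any score in place of thresholded ones, 11 and not 6 kirre regions overlapped a peak in both replicates. The ranked lists of replicates 1 and 2 hold 73075 and 99556 rows. The same share over all regions is not given here, so this count is not read as replicate support for kirre. With 20 kb upstream, 19 and not 12 genes of the fusion and adhesion list had a region. The share of all protein-coding genes at that distance is not given here, so the rise is not read as a result about the list. The number of genes with at least as many regions as kirre, 2, was 2 in the conservative list and 3 to 6 with a replicate left out, 6 being without replicate 2, in alternatives chosen after seeing the data. The median spacing at kirre, 14491 bp, ranged from 11172 bp to 42529 bp. The causes were not tested. Mean A+T content and the count of TATAAA windows moved by less than their spread with windows of 25 or 100 bp either side. No paired analysis was possible because the series has 1 group. Without reads per library, what depth limits is unknown, and a region that is absent may be one that did not reach the score limit.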

Other observations

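A second row within region 5 of kirre had a signal of 6.01 with the top score of 1000, while a peak at chrX:2993328-2993671 with a score of 816 had a signal of 13.5 and fell below the limit. The strongest ranked peak at rst had a higher score in replicate 2 alone, 647 with a signal of 26.0, than in the ranked list of the series, 578 with a signal of 43.7.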
